A study of Rattus norvegicus with 20 samples.

Results

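The potassium channel genes described here are those whose rat gene symbol begins with Kcn, measured on 1-colour Affymetrix arrays in nucleus accumbens shell, part of the ventral striatum and of the reward circuit. All probe sets that name 1 gene with such a symbol were taken, and where a gene had several, the brightest one on average across the 20 arrays stood for it. This gave 75 genes with 126 probe sets, of 14217 genes so named in the table. A probe set entered the tests if its mean over all arrays was at least 6.65 on the log2 scale, the level below which the dimmest 33.3% of probe sets were left out. Of the 75 genes, 47 passed that filter and 28 did not. Kcnj5, Kcnh4 and Kcnj12 lay just above it at means of 6.70, 6.71 and 6.73, and Kcnj3, Kcnh6 and Kcnk12 just below it at 6.61, 6.60 and 6.59.

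The ethanol group was 10 alcohol-preferring (P) rats that had adolescent access to drinking solutions with 15 and 30% ethanol, and the water group was 10 P rats that had water alone. P rats were selectively bred to drink much ethanol by choice, so both groups carry that selection, and no outbred animals were measured. Each animal gave 1 array, and all differences below are ethanol minus water on the log2 scale. The samples were pieces of tissue, in which fewer cells of a type and less RNA per cell cannot be told apart.

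Potassium channels let potassium leave a neuron, which sets the resting potential, ends action potentials and spaces them. Voltage-gated (Kv) channels are tetramers of pore subunits that open on depolarisation, and cytoplasmic or membrane subunits change their gating and trafficking. Inward rectifiers (Kir) and 2-pore-domain channels carry current near rest. In the projection cells of the striatum, called medium spiny neurons, Kir2 channels hold the cell at a very negative resting potential and A-type Kv4 and slowly inactivating Kv1 currents delay firing. G protein-gated inward rectifiers (GIRK) and the calcium-activated BK channel are among the channels on which ethanol acts directly.

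No potassium channel gene passed the threshold of an adjusted p under 0.05 between ethanol and water animals, with adjustment over all 20695 probe sets tested (limma, Benjamini-Hochberg). The count was 0 of 47 genes, where 0.0931% of all 10746 genes tested were called, and the smallest adjusted p among the 47 was 0.364. At an unadjusted p under 0.05 there were 8 of 47 genes (17.02%), where 10% of all genes met that level. Of these, 7 were higher in ethanol, namely Kcng3, Kcnh3, Kcnip2, Kcnh4, Kcnmb4, Kcnv1 and Kcns2, where 5.24% of all genes were, and Kcna6 alone was lower, where 4.77% were. The median difference was 0.09 over the 47 genes and 0.00016 over all genes, with 32 of 47 (68.1%) above 0 against 50.1% of all genes. No potassium channel gene had groups that did not overlap, which 0.0651% of all genes had.

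The counts rested on few animals. In water animals 17, 19 and 20 markers of medium spiny neurons averaged 11.84, 12.03 and 11.53, while the other 17 animals lay between 12.27 and 12.95. Arrays of water animals 12, 17 and 20 also correlated less with the rest than the others did, more than 3 scaled median absolute deviations below the median. Without animals 17, 19 and 20, 0 of the 47 genes passed (limma, smallest adjusted p = 0.36), where 0.130% of all genes did, 1 (Kcnc1) was at an unadjusted p under 0.05 (2.13%, against 8.45% of all genes), and the median difference was 0.02 over the 47 genes and 0.0092 over all genes. The differences above 0 were then 28 of 47 (59.6%), against 55.5% of all genes. For a gene in which these animals had the lowest or highest values, leaving them out moves the difference by construction. Leaving out 1 array at a time gave a median between 0.049 (without water animal 20) and 0.103, and 0.053 without water animal 17. Of the 7 genes that were higher at that level, 1 remained in number without animal 17, 1 without animal 20 and 2 without animal 19. There were 3 without ethanol animal 1, 5 or 9, and 4 without ethanol animal 4, 7 or 10. The count also rose, to at most 9, without water animal 18. The single lower gene became 2 without water animal 15 or 18 and 0 without ethanol animal 9.

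The arrays bound the size of the difference on the probe set that stands for each gene, and genes below the filter have no such bound. The 95% interval lay within 1.5-fold in either direction for 42 of 47 genes and within 1.2-fold for 17. The 5 whose intervals reached beyond 1.5-fold were Kcng3, Kcnv1, Kcnc2, Kcnj16 and Kcns3, and only that of Kcns3 reached beyond 2-fold. The median half-width of the interval was 0.19 on the log2 scale. Further probe sets of Kcnip2, Kcnab1 and Kcnj6 had intervals of 0.10 to 0.70, 0.10 to 0.65 and -0.93 to 0.29, which reach beyond 1.5-fold.

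**Figure D1:**
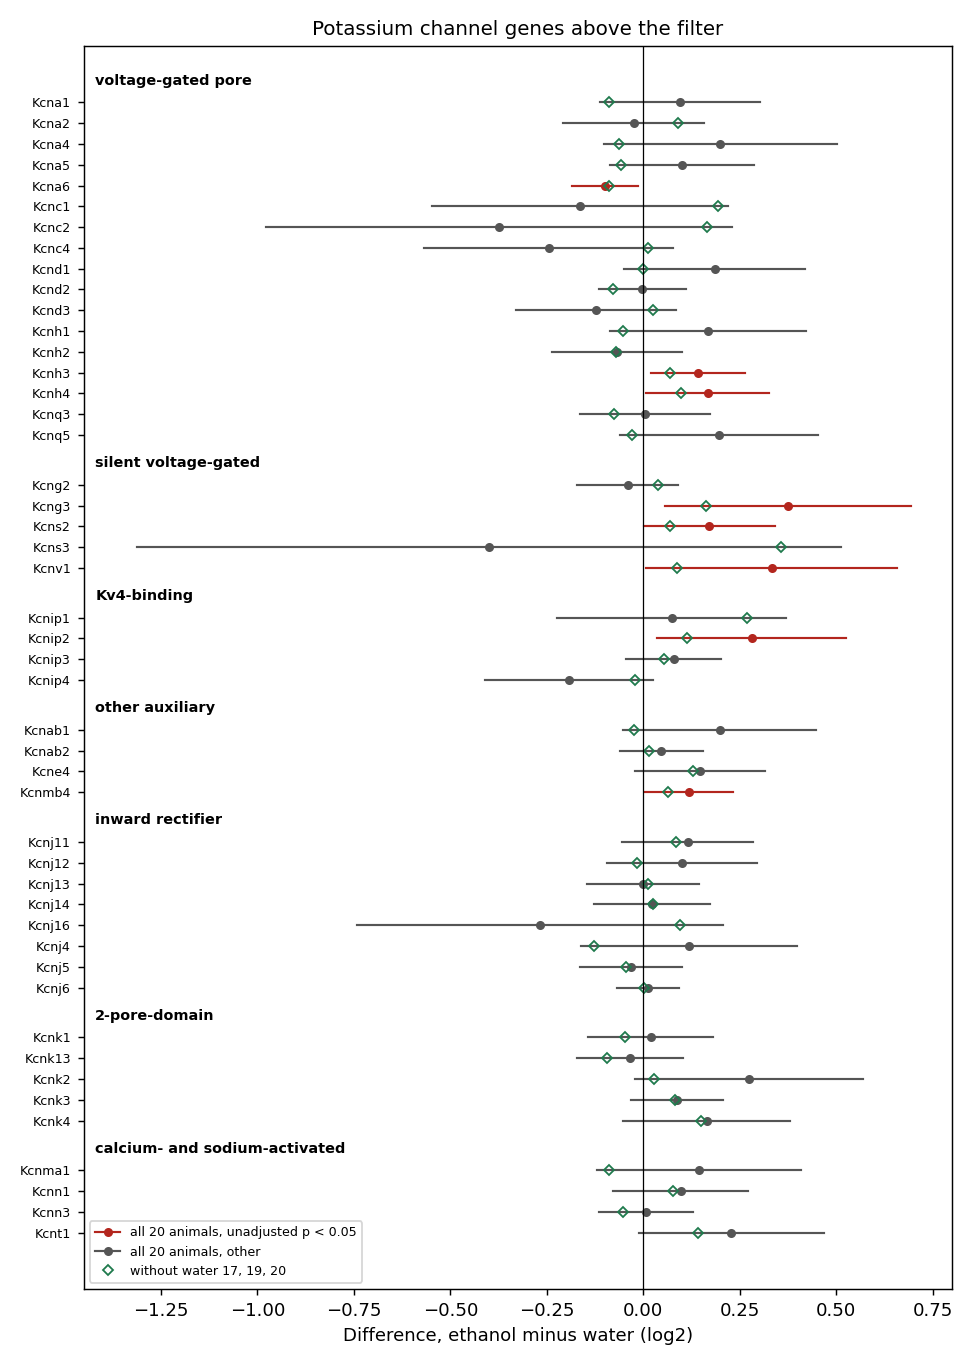
Difference between ethanol and water animals (log2, horizontal axis) for the 47 potassium channel genes above the filter, grouped by channel type. Circles and bars are the difference and its 95% interval over all 20 animals, red for the 8 genes at an unadjusted p under 0.05, and green diamonds are the difference without water animals 17, 19 and 20, most of which lie closer to 0.

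To show regulatory sequence, the 250 bases before the start are given for 3 genes that shifted in water animals 17, 19 and 20. Kcnip2 and Kcnab1 were low in these animals and Kcnc1 was high, and Kcnip2 was also low in water animals 12 and 13. The stretches are from RefSeq, build GRCr8, at chr1:254613899-254614148 on the minus strand for Kcnip2, chr2:151614301-151614550 on the plus strand for Kcnab1 and chr1:106038997-106039246 on the plus strand for Kcnc1. Capitals mark the GC box, GGGCGG or its reverse complement CCGCCC.
Kcnip2: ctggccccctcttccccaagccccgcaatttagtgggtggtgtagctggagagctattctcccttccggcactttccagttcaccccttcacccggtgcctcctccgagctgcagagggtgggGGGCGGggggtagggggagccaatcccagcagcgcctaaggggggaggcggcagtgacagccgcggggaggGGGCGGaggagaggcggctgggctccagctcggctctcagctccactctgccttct
Kcnab1: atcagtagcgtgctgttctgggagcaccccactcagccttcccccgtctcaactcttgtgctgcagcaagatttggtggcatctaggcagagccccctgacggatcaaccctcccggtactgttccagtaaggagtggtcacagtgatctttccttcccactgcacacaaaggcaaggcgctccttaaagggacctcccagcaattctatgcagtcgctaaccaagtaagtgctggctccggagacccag
Kcnc1: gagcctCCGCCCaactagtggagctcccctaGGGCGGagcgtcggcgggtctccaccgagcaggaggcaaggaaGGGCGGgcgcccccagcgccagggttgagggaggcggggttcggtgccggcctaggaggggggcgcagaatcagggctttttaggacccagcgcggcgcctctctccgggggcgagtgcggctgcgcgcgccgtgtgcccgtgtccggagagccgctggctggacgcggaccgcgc
The stretch of Kcnip2 holds 2 GC boxes, that of Kcnab1 holds 0 and that of Kcnc1 holds 3, and their GC contents are 68.0%, 56.0% and 74.4%. Among the potassium channel genes 52 matched the promoter table with 58 starts, of which 32 (55.2%) hold a GC box on either strand in this window, against 30.5% of all 33469 starts. Every start in that table was counted, without a limit to genes named on the arrays, so the shares come from unlike sets. A match describes the letters and shows no bound factor.

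Among voltage-gated pore subunits (Kcna, Kcnb, Kcnc, Kcnd, Kcnh and Kcnq) 17 of 24 genes were measured and 0 passed. At an unadjusted p under 0.05, 2 were higher and 1 lower, where 5.24% and 4.77% of all genes were. The median difference was 0.0037, and -0.03 without water animals 17, 19 and 20. Kcna6, a Kv1 pore subunit, had a lowest, median and highest value of 10.65, 10.88 and 10.92 in ethanol animals, against 10.78, 10.95 and 11.06 in water animals. All 10 ethanol animals lay below the water mean, although the groups overlapped over most of their range. The difference was -0.10 ± 0.04 (SE, 10 animals a group, limma, p = 0.0243, adjusted p = 0.364). It was -0.09 without water animals 17, 19 and 20 and -0.06 when the fit held each array's 3' minus 5' value, a measure of RNA integrity.

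Kcnh3 and Kcnh4 encode pore subunits of the ether-a-go-go-like (Elk) branch, which is found mainly in forebrain neurons. Kcnh3 had a lowest, median and highest value of 9.66, 9.93 and 10.0001 in ethanol animals, against 9.55, 9.73 and 10.08 in water animals. The low water values were those of animals 17, 19 and 20, while water animal 12 had the highest of all 20. Its difference was 0.14 ± 0.06 (limma, p = 0.0247, adjusted p = 0.364). It was 0.07 without the 3 animals and 0.19 without water animals 12 and 13 (adjusted p = 0.227). Kcnh4 ranged from 6.58 to 7.01 (median 6.84) in ethanol animals, against 6.29 to 6.98 (median 6.60) in water animals, and differed by 0.17 ± 0.08 (adjusted p = 0.402). The difference of Kcnh4 was 0.10 when water animals 17, 19 and 20 were left out. Its ethanol mean of 6.80 lay above the filter and its water mean of 6.63 below it, so it entered the tests through the ethanol animals, and it is 1 of the 7 genes counted as higher.

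The other Kv1 and Kv4 pore subunits did not pass. Kcna4, an A-type Kv1 subunit, ranged from 11.29 to 11.99 (median 11.90) in ethanol animals, against 10.73 to 11.89 (median 11.81) in water animals. Water animals 17, 19 and 20 had its 3 lowest values, at 10.94, 11.24 and 10.73. The difference was 0.20 with all animals (interval -0.10 to 0.50, adjusted p = 0.57) and -0.06 without those 3. Kcnd2 and Kcnd3 form the somatodendritic A-type channel. Kcnd2 averaged 12.63 ± 0.10 in ethanol and 12.63 ± 0.14 in water animals (SD, n = 10 each), a difference of -0.0025 with an interval of -0.12 to 0.11. Kcnd3 differed by -0.12 (interval -0.33 to 0.09), and animals 17, 19 and 20 had its 3 highest values. Without them Kcnd2 differed by -0.08 and Kcnd3 by 0.03.

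Kcnq3 and Kcnq5 are subunits of the M-current, a slow brake on firing that muscarinic receptors close. Kcnq5 ranged from 12.57 to 12.99 (median 12.80) in ethanol animals, against 11.75 to 12.94 (median 12.75) in water animals. Animals 17, 19 and 20 again had the lowest values, at 12.21, 12.26 and 11.75, and the difference of 0.20 with all animals (adjusted p = 0.513) was -0.03 without them. Kcnq3 differed by 0.0037 (interval -0.16 to 0.17), and by -0.08 without the 3 animals.

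The Kv3 pore subunits Kcnc1, Kcnc2 and Kcnc4, named here after their values were seen, give channels that repolarise fast and let interneurons and pallidal cells fire at high rates. Kcnc2 ranged from 9.76 to 10.86 (median 10.14) in ethanol animals, against 9.52 to 12.15 (median 10.11) in water animals. The medians were close, and the width of the water range came from animals 17, 19 and 20, at 11.96, 11.45 and 12.15. Kcnc1 ranged from 10.46 to 11.01 in ethanol animals, against 10.28 to 11.95 in water animals, with 11.74, 11.29 and 11.95 in the same 3. Kcnc4 likewise ranged from 7.60 to 8.12 in ethanol animals and reached 9.27 in water animal 20.

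For all 3 Kv3 genes the difference was negative, at -0.37 for Kcnc2, -0.16 for Kcnc1 and -0.24 for Kcnc4 (adjusted p = 0.594, 0.718 and 0.517). Without animals 17, 19 and 20 they were positive, at 0.17, 0.19 and 0.01 (adjusted p = 0.728, 0.36 and 0.966). That fit leaves out the highest water values by construction, so the turn of sign is no separate result. The mean over the GABAergic interneuron markers was also high in these animals, and values of single markers are not given here. It was 10.87, 10.80 and 11.16 in water animals 17, 19 and 20, against 10.36 to 10.67 in the other 17 animals. It covers the 6 of 8 named markers above the filter, Nos1 and Vip being below it. Between the groups 3 of the 6 had a positive and 3 a negative difference, with 0 called. Of the 13 marker lists examined, those of medium spiny neurons, interneurons and oligodendrocyte precursors lay outside the range of the other 17 animals in all 3. The precursor markers averaged 9.66, 9.65 and 9.70 in them, against 9.25 to 9.57. The part of the interneuron and precursor markers in the channel values was not tested.

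**Figure D2:**
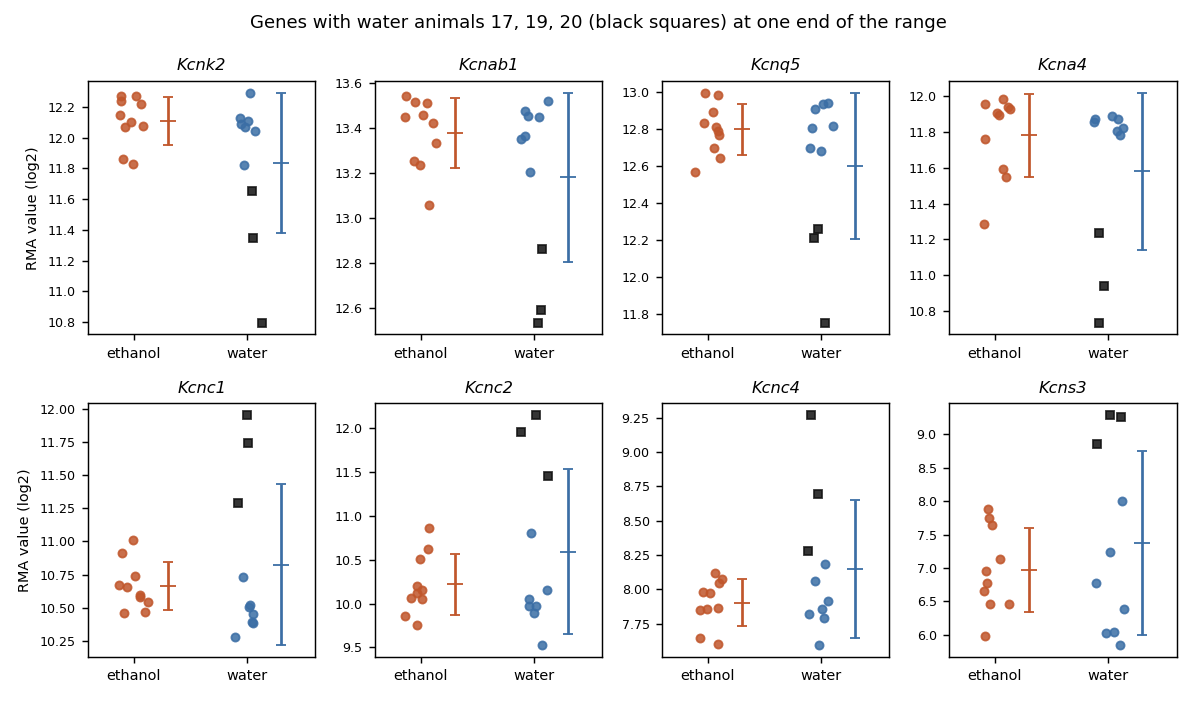
RMA values (log2, vertical axis) of 8 potassium channel genes, 1 point per animal, with the mean and SD of each group beside the points. Water animals 17, 19 and 20 (black squares) are the 3 lowest of all 20 animals for Kcnk2, Kcnab1, Kcnq5 and Kcna4, and the 3 highest for Kcnc1, Kcnc2, Kcnc4 and Kcns3.

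Silent subunits (Kcnf, Kcng, Kcns and Kcnv) form no channel of their own and change the gating of Kv2 channels when they join them. Of 7 genes 5 were measured, 0 passed, and 3 were higher at an unadjusted p under 0.05, where 5.24% of all genes were. The median difference was 0.17, and 0.09 without water animals 17, 19 and 20. Kcng3 ranged from 6.98 to 7.88 (median 7.31) in ethanol animals, against 6.18 to 7.5 (median 7.07) in water animals. All 10 ethanol animals lay above the water mean, and the water animals with low values were 17, 18, 19 and 20. The difference was 0.38 ± 0.15, or 1.30-fold (limma, p = 0.0235, adjusted p = 0.364), and 0.16 without water animals 17, 19 and 20.

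Kcnv1 ranged from 9.68 to 10.58 (median 10.38) in ethanol animals, against 8.98 to 10.52 (median 10.09) in water animals. Its difference was 0.33 ± 0.16 (p = 0.0456 by limma, adjusted p = 0.404), and 0.09 without the 3 animals, of which animal 20 had the lowest value. Kcns2 ranged from 7.01 to 7.45 in ethanol animals, against 6.74 to 7.37 in water animals, and differed by 0.17 ± 0.08 (adjusted p = 0.407), and by 0.07 without the 3 animals. Kcns3, named after its values were seen, had the widest spread, with an SD of 0.63 between ethanol and 1.38 between water animals. It was at 9.27, 8.85 and 9.29 in water animals 17, 19 and 20, while the other 17 animals ranged from 5.84 to 8.001. Its difference was -0.40 with all animals and 0.36 without these 3 (adjusted p = 0.711 and 0.692), which leaves out the highest water values by construction.

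**Figure D3:**
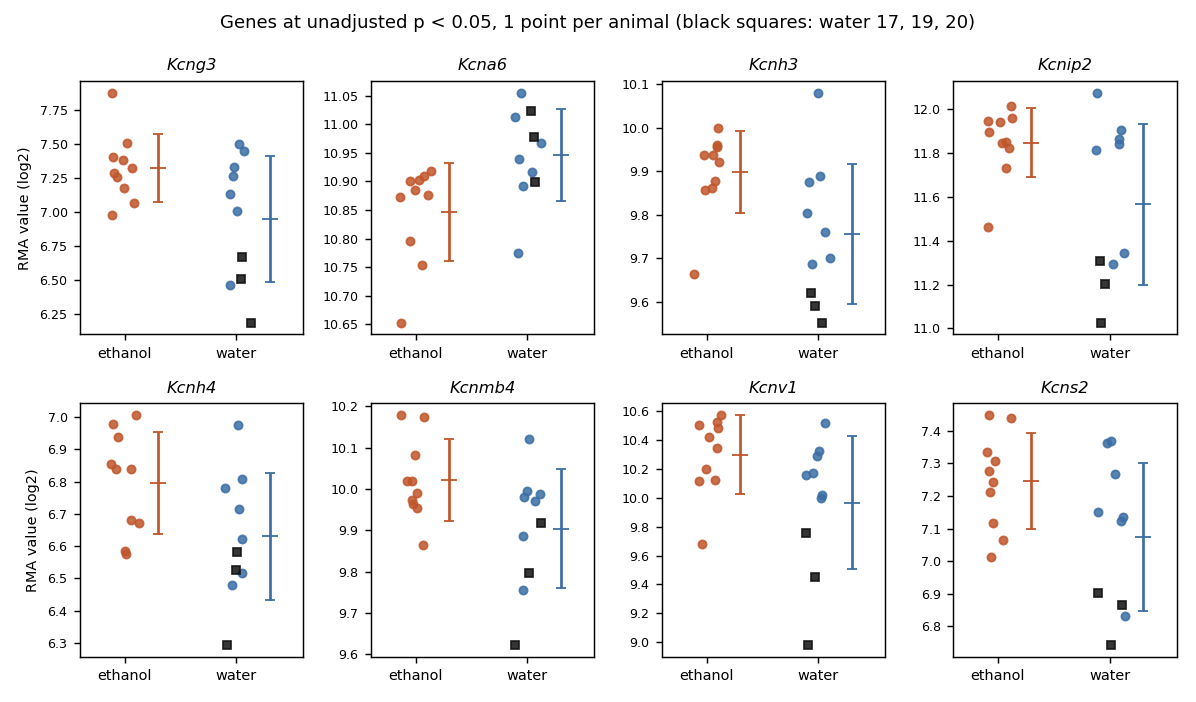
RMA values (log2, vertical axis) of the 8 potassium channel genes at an unadjusted p under 0.05, 1 point per animal, with the mean and SD of each group beside the points. Ethanol and water animals overlap for every gene, and water animals 17, 19 and 20 (black squares) lie below the water median for the 7 genes with a positive difference.

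The Kv4-binding proteins Kcnip1 to Kcnip4 (KChIPs) are calcium sensors that bring Kv4 channels to the membrane and slow their inactivation. All 4 were measured, 0 passed and Kcnip2 was higher at an unadjusted p under 0.05, where 5.24% of all genes were. Kcnip2 ranged from 11.46 to 12.02 (median 11.88) in ethanol animals, against 11.03 to 12.08 (median 11.58) in water animals. Of the ethanol animals 9 lay above the water mean, and the water values fell apart into an upper set of 5 animals near the ethanol values and a lower set made of animals 12, 13, 17, 19 and 20. The difference was 0.28 ± 0.12, or 1.21-fold (limma, p = 0.0267, adjusted p = 0.373). It was 0.11 without water animals 17, 19 and 20, and -0.05 without all 5, which leaves out the low water values by construction.

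Kcnip4 was on the other side. It ranged from 10.85 to 11.40 (median 11.26) in ethanol animals, against 11.07 to 11.95 (median 11.28) in water animals, with 11.95, 11.56 and 11.87 in animals 17, 19 and 20. The difference of -0.19 (interval -0.41 to 0.02, adjusted p = 0.46) was -0.02 without them. Kcnip1 and Kcnip3 differed by 0.07 and 0.08 (adjusted p = 0.848 and 0.582). Kcnip1 differed by 0.27 without the 3 animals, which read 10.37, 10.22 and 10.47, and by 0.25 with the medium spiny neuron markers as a covariate (p = 0.0396 by limma, adjusted p = 0.473).

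Of the other auxiliary subunits (Kcnab, Kcne and Kcnmb) 4 of 9 genes were measured and 0 passed, where 0.0931% of all genes did. All 4 differences were positive, as were 50.1% of those of all genes. The median was 0.13, and 0.04 without water animals 17, 19 and 20. Kcnmb4, the neuronal beta subunit of the BK channel that slows its opening, ranged from 9.87 to 10.18 (median 10.004) in ethanol animals, against 9.62 to 10.12 (median 9.94) in water animals. It differed by 0.12 ± 0.06 (limma, p = 0.0435, adjusted p = 0.404) and by 0.07 without water animals 17, 19 and 20. Kcnab1, a cytoplasmic beta subunit that speeds the inactivation of Kv1 channels, ranged from 13.06 to 13.54 in ethanol animals, against 12.53 to 13.52 in water animals. Its values in animals 17, 19 and 20 were 12.53, 12.86 and 12.59, below every other animal, and the difference of 0.20 (adjusted p = 0.501) was -0.03 without them. Kcne4, a single-span subunit, differed by 0.15 (adjusted p = 0.464) and by 0.13 without the 3 animals.

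No inward rectifier (Kcnj) passed the test. Of 15 genes 8 were measured, 0 passed and 0 were at an unadjusted p under 0.05, where 10% of all genes were, and the median difference was 0.02, and 0.0071 without water animals 17, 19 and 20. Kcnj4 and Kcnj12 encode Kir2 subunits. Kcnj4 ranged from 9.14 to 9.85 (median 9.53) in ethanol animals, against 8.68 to 9.82 (median 9.58) in water animals. Animals 17, 19 and 20 had the 3 lowest values, at 8.95, 8.80 and 8.68. The difference was 0.12 with all animals and -0.13 without them (adjusted p = 0.72 and 0.546), so neither sign was called. Kcnj12 differed by 0.10 (interval -0.10 to 0.30) and by -0.02 without the 3, and Kcnj2, the third Kir2 member named here, was below the filter at 5.72.

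GIRK channels are opened by G proteins and, directly, by ethanol. On its representing probe set Kcnj6 averaged 7.08 ± 0.04 in ethanol and 7.06 ± 0.10 in water animals (SD, n = 10 each). The difference was 0.01 with an interval of -0.07 to 0.09. A further probe set of Kcnj6 differed by -0.32 with a wide interval of -0.93 to 0.29, so the narrow bound holds for the representing probe set alone. Kcnj3 and Kcnj9 were below the filter, at means of 6.61 and 5.95. Kcnj11, the pore of the ATP-sensitive channel, differed by 0.11 (adjusted p = 0.564), and by 0.22 in the fit that held the 3' minus 5' value (p = 0.0125 by limma, adjusted p = 0.665).

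Glial and vascular Kir members mostly read dim on these arrays. Kcnj10, the main Kir of astrocytes, and Kcnj8, the Kir of pericytes, were below the filter at 5.14 and 6.07. Each has 1 probe set here, so low expression and a probe set that reads the transcript poorly cannot be told apart. Kcnj16, a partner of Kcnj10, ranged from 8.21 to 9.15 (median 8.64) in ethanol animals, against 7.90 to 9.86 (median 8.85) in water animals. It was highest in animals 17, 19 and 20, at 9.86, 9.47 and 9.84, and the difference of -0.27 (adjusted p = 0.628) was 0.10 without them. Astrocyte markers averaged 11.93, 11.94 and 12.10 in these 3 animals, against 11.67 to 11.95 in the other 17, and oligodendrocyte markers 11.66, 11.51 and 11.55, against 10.74 to 11.64.

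Leak channels of the 2-pore-domain type were measured for 5 of 11 genes, with 0 past the threshold and 0 at an unadjusted p under 0.05. Of all genes 0.0931% and 10% were. The median difference was 0.09, and 0.03 without water animals 17, 19 and 20. Kcnk2 (TREK-1), which opens with membrane stretch and fatty acids, ranged from 11.83 to 12.27 (median 12.13) in ethanol animals, against 10.79 to 12.29 (median 12.06) in water animals. Water animals 17, 19 and 20 were at 10.79, 11.65 and 11.34, below the lowest value of the other 17. The difference was 0.27 (interval -0.02 to 0.57, adjusted p = 0.444) with all animals and 0.03 without them. Kcnk3, an acid-sensitive leak channel, and Kcnk4, a relative of Kcnk2, differed by 0.09 and 0.16 (adjusted p = 0.535 and 0.517) and by 0.08 and 0.15 without the 3. Kcnk13, which microglia use, differed by -0.03, and by -0.09 without the 3, and Kcnk9 was below the filter.

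Channels opened by calcium or sodium were measured for 4 of 5 genes, with 0 past the threshold and 0 at an unadjusted p under 0.05. Of all genes 0.0931% and 10% were. The median difference was 0.12, and 0.01 without water animals 17, 19 and 20. Kcnma1, the pore of the BK channel, ranged from 10.76 to 11.31 (median 11.20) in ethanol animals, against 10.18 to 11.34 (median 11.23) in water animals. Its 3 lowest values were those of water animals 17, 19 and 20, at 10.63, 10.65 and 10.18, followed by ethanol animal 8. The difference was 0.14 (interval -0.12 to 0.41, adjusted p = 0.639) with all animals and -0.09 without the 3 water animals. Kcnt1, the sodium-activated Slack channel, differed by 0.23 (interval -0.01 to 0.47, adjusted p = 0.432), and all 10 ethanol animals lay above the water mean. That mean held low values of 9.55, 9.73, 9.89 and 9.58 in water animals 12, 13, 19 and 20. The difference of Kcnt1 was 0.14 without animals 17, 19 and 20. It was -0.07 without 12 and 13 as well, which leaves out the low water values by construction. The SK channel genes Kcnn1 and Kcnn3, which carry the medium afterhyperpolarisation current, differed by 0.10 and 0.01, and by 0.08 and -0.05 without the 3 animals. Kcnn2, another SK channel gene, was not analysed here. The other 12 measured genes, over all groups, differed by -0.07 (Kcnh2) to 0.18 (Kcnd1). By construction 0 of the 12 were at an unadjusted p under 0.05, because every such potassium channel gene was described above. Of all genes 10% were at that level. Without water animals 17, 19 and 20 the 12 differed by -0.09 (Kcna1) to 0.09 (Kcna2). Then 8 of the 12 (Kcna1, Kcna2, Kcna5, Kcnd1, Kcng2, Kcnh1, Kcnj13 and Kcnk1) had the opposite sign.

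Some of the genes were also read by further probe sets. Of 24 that passed the filter, for 19 genes, 0 passed the threshold and 4 were at an unadjusted p under 0.05 (16.7%, against 15.4% of all further probe sets). The sign was that of the representing probe set for 19 of 24. For Kcnip2 the further probe set differed by 0.40 ± 0.14 and for Kcnab1 by 0.38 ± 0.13 (limma, adjusted p = 0.327 and 0.316), both more than the representing probe set. Without water animals 17, 19 and 20 these were 0.28 for Kcnip2 and 0.16 for Kcnab1. Kcnab2, a Kv1 beta subunit named after its values were seen, had the smallest p of the family on a dim further probe set (6.99 ± 0.14 in ethanol and 6.74 ± 0.16 in water animals, SD, n = 10 each). That probe set differed by 0.25 ± 0.07 (adjusted p = 0.224), and leaving out water animals 17, 19 and 20 gave 0.26 (adjusted p = 0.178). The bright probe set that stands for Kcnab2 differed by 0.05, and its 2 others by 0.06 and 0.13. Kcnj6 disagreed with itself, at 0.01 on the representing and -0.32 on the further probe set, which read 8.05, 8.43 and 8.36 in animals 17, 19 and 20 and at most 7.71 in the other 17. Without these animals the further probe set of Kcnj6 differed by 0.19.

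**Figure D4:**
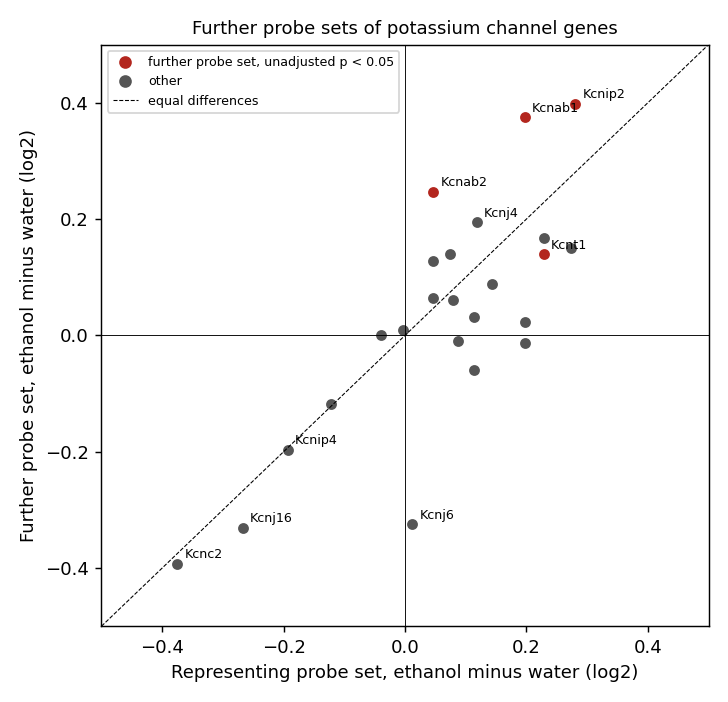
Difference between ethanol and water animals (log2) on the representing probe set (horizontal axis) and on each of the 24 further probe sets (vertical axis) of 19 potassium channel genes. Points near the dashed line have equal differences, 4 further probe sets (red) were at an unadjusted p under 0.05, and the point of Kcnj6 lies far below the line.

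The spread between animals was itself unequal. The SD was larger between water than between ethanol animals for 40 of 47 potassium channel genes (85.1%), as it was for 81.2% of all genes. Without water animals 17, 19 and 20 it was larger for 28 (59.6%), against 62.2% of all genes. The median SD was 0.16 between ethanol animals and 0.24 between water animals, and 0.16 between the other 7 water animals, where all genes had 0.10, 0.14 and 0.12.

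Among other cell type lists, all 19 measured medium spiny neuron markers had a positive difference and all 15 oligodendrocyte markers a negative one, with 0 called in either. The list means differed by 0.27 and -0.16 with all animals, and by -0.01 and -0.0023 without water animals 17, 19 and 20. The medium spiny neuron mean ranged from 12.27 to 12.95 in ethanol and from 11.53 to 12.94 in water animals. The oligodendrocyte mean ranged from 10.77 to 11.64 in ethanol and from 10.74 to 11.66 in water animals. With the first as a covariate Kcnip2, Kcng3, Kcnv1 and Kcnh3 differed by 0.10, 0.23, 0.08 and 0.08, Kcna6 by -0.09, and the median over the 47 genes was 0.01. With the second they differed by 0.18, 0.27, 0.20 and 0.10, Kcna6 by -0.10, and the median was 0.02. None passed in either fit (limma, smallest adjusted p among the 47 genes = 0.458 and 0.367). Endothelial and pericyte markers differed by 0.08 and 0.03 between the groups, with 0 called.

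Genes that work with potassium channels but carry other symbols were read from a list of 36, of which 29 were named in the table and 27 measured. None passed (limma, smallest adjusted p = 0.346), and 13 differences were positive and 14 negative, with a median of -0.0023. At an unadjusted p under 0.05, 0 were higher and 1 was lower, where 5.24% and 4.77% of all genes were. The lower one was Vapb, a protein of the endoplasmic reticulum that tethers Kv2 channels, at 10.82 ± 0.04 in ethanol and 10.95 ± 0.15 in water animals (SD, n = 10 each). Its difference was -0.13, and -0.05 without water animals 17, 19 and 20. Gng7, a G protein subunit abundant in striatum, differed by 0.26 and Gng2, another one, by -0.23 (adjusted p = 0.481 and 0.549), and these were -0.03 and 0.04 without the 3 animals. Tmem38a, a cation channel of the endoplasmic reticulum, differed by 0.09 and, without the 3 animals, which had its lowest values, by -0.01.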

How the data were processed

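RNA of 20 animals (10 ethanol, 10 water) was labelled from 50 ng per the labels' protocols, from the 3' end, so values depend on RNA integrity. The authors deposited log2 values made with RMA, per the submitters' processing notes; no software, version or chip definition is given in the sources used here. Array medians lay between 7.93 and 7.98, and the number of arrays limits the precision. All columns of sample values were used. Of 31099 probe sets 20826 name 1 gene in the platform's table, 436 several, 9780 none, and 57 are controls; all 75 potassium channel genes matched RefSeq by identifier.

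Groups were compared with limma (version 3.58.1, R 4.3.3, lmFit and eBayes, two-sided, no covariates) on all 20695 probe sets past the filter, with Benjamini-Hochberg adjustment and a threshold of 0.05. The fit was tested on simulated data with independent noise of the same SD in both groups. That test does not cover unequal spread or shifts shared by several animals, both seen in these arrays. RNA quality was the mean of 3' minus 5' over control genes, 1.16 ± 0.11 in ethanol and 1.29 ± 0.15 in water animals (SD, n = 10 each). The members, gene lists, the naming rule (members of small p overall and per channel type, members of known roles, 4 partner genes) and the animals left out were chosen with earlier results of these data known. Alternatives changed the filter, normalization, variance model, weights, adjustment, probe set choice, animals and covariates.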

Additional observations from a re-analysis of the deposited data

Results flagged for a closer look

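Of 62 groups of 10 values tested (the named genes above the filter, in ethanol and in water animals), 7 held a value far from the others by Dixon's test, 4 in ethanol and 3 in water animals, and chance gives about 1 in 20 groups. Ethanol animal 8 was the lowest for 4 genes. It read 10.76 for Kcnma1 (next 11.12), 9.66 for Kcnh3 (next 9.86), 11.46 for Kcnip2 (next 11.73) and 9.68 for Kcnv1 (next 10.12). Its medium spiny neuron markers averaged 12.27, the lowest of the ethanol animals. Water animal 17 was lowest for Kcnk13 at 7.35 (next 7.61). Water animal 16 was highest for Kcne4 at 7.92 (next 7.49), and water animal 12 highest for Kcnk3 at 7.87 (next 7.57).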

How the results depend on the processing

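Differences rest on 10 animals a group. The count past the adjusted threshold was 0 (limma) under all 15 alternatives and 20 fits that each left out 1 array. The count higher at an unadjusted p under 0.05 was 4 with probe sets below the median level left out, 3 with array weights, 11 with the mean over probe sets, 2 with 3' minus 5' as a covariate, 1 with medium spiny neuron markers, 1 with oligodendrocyte markers, 1 without water animals 17, 19 and 20, and 1 to 9 leaving out 1 array. The count lower was 2 with medium spiny neuron markers, 0 with 3' minus 5', 0 without those 3 or without water animals 12, 13, 17, 19 and 20, and 0 to 2 leaving out 1 array. The median was 0.022 with no filter, 0.025 without the 3, 0.016 without the 5, 0.010 with medium spiny neuron and 0.020 with oligodendrocyte markers. The alternatives were run gene by gene for the 35 measured genes described one by one, for which 451 differences kept their sign and 61 turned, and the lists below cover those 35 alone. Of the other 12, 8 turned without water animals 17, 19 and 20. The causes were not tested. No paired analysis was possible because the groups share no animal numbers.

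After a further quantile normalization the turned differences were -0.00154 for Kcnj6, -0.000303 for Kcnn3 and -0.0119 for Kcnq3. With array weights the turned differences were 0.00328 for Kcnd3, -0.0118 for Kcnj6, -0.00702 for Kcnn3, -0.00342 for Kcnq3, 0.0306 for Kcnc1 and 0.0733 for Kcns3. With the mean over probe sets the turned differences were 0.00301 for Kcnd2 and -0.156 for Kcnj6. Without water animals 17, 19 and 20 the turned differences were -0.0622 for Kcna4, -0.0252 for Kcnab1, 0.0261 for Kcnd3, -0.0161 for Kcnj12, 0.0959 for Kcnj16, -0.129 for Kcnj4, -0.0891 for Kcnma1, -0.0523 for Kcnn3, -0.0755 for Kcnq3, -0.0288 for Kcnq5, 0.194 for Kcnc1, 0.166 for Kcnc2, 0.0133 for Kcnc4 and 0.357 for Kcns3. Without water animals 12 and 13 the turned differences were 0.033 for Kcnd2. Without water animals 12, 13, 17, 19 and 20 the turned differences were -0.057 for Kcna4, -0.0753 for Kcnab1, 0.138 for Kcnd3, -0.0526 for Kcnip2, -0.0137 for Kcnj12, 0.259 for Kcnj16, -0.151 for Kcnj4, -0.00697 for Kcnj6, -0.0171 for Kcnk2, -0.141 for Kcnma1, -0.0301 for Kcnn3, -0.0832 for Kcnq5, -0.0666 for Kcnt1, 0.231 for Kcnc1, 0.336 for Kcnc2, 0.106 for Kcnc4 and 0.76 for Kcns3. With 3' minus 5' the turned differences were 0.0458 for Kcnd2 and -0.000612 for Kcnj6. With medium spiny neuron markers the turned differences were -0.0438 for Kcna4, -0.00389 for Kcnab1, 0.0226 for Kcnd3, -0.0189 for Kcnj12, 0.0539 for Kcnj16, -0.106 for Kcnj4, -0.0722 for Kcnma1, -0.0400 for Kcnn3, -0.057 for Kcnq3, -0.00948 for Kcnq5, 0.115 for Kcnc1, 0.0808 for Kcnc2 and 0.262 for Kcns3. With oligodendrocyte markers the turned differences were -0.0206 for Kcnj4, -0.0212 for Kcnn3 and -0.0504 for Kcnq3. Leaving out 1 array at a time gave -0.0267 to 0.0222 for Kcnd2, -0.00457 to 0.137 for Kcnip1, -0.00515 to 0.0282 for Kcnj6, -0.0248 to 0.0394 for Kcnn3 and -0.0272 to 0.0478 for Kcnq3.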
